A study of Homo sapiens with 18 samples.

Results

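The comparison described here set unsorted (bulk) cells treated with EPZ5676 against bulk cells treated with DMSO, the solvent. All cells were WM989, an established human melanoma line. The members were taken from the sample labels and comprised 6 of the 18 poly(A)-selected RNA-seq libraries of the series: 3 libraries after 7 days of 4 µM EPZ5676 and 3 libraries after 7 days of DMSO. The other 12 libraries came from cultures given the same treatments, of which just the cells high or just the cells low in both NGFR and EGFR were taken, with 3 libraries for each sort and treatment. The labels name a single cell line and no genetic change, and call the replicates separate samples without saying that they came from separate cultures. P-values therefore measure the spread between these samples, which may be technical.

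EPZ5676, also known as pinometostat, is a small molecule that occupies the cofactor pocket of DOT1L, the enzyme that methylates a lysine in the core of histone H3 along the bodies of transcribed genes. The mark is lost slowly, as treated cells divide, so that effects on RNA are usually read after days of treatment. In WM989 cultures, rare cells with high NGFR and EGFR are known to be more likely to survive inhibition of mutant BRAF. The histone mark itself was not analysed here.

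One library stood apart from the rest, and the comparisons are therefore given with it and without it. On the first principal component of all 18 libraries, which held 66.4% of the variance, DMSO bulk replicate 1 lay at -30.5, while DMSO bulk replicates 2 and 3 lay at 45.1 and 44.2 and the EPZ5676 bulk libraries between 27.4 and 31.9. Across 18121 genes, the deviation of that library from the mean of the other DMSO bulk libraries followed the difference between DMSO high-sorted and DMSO low-sorted cells (Pearson's r = 0.769, Spearman's rho = 0.687, a description across genes that are not independent replicates). Genes at least 2-fold higher in the high than in the low sort under DMSO, 2321 in number, had a mean log2 CPM (read counts scaled to the total of each library) of 2.21 in DMSO bulk replicate 1. The same mean was 1.09 and 1.10 in DMSO bulk replicates 2 and 3, 1.38 to 1.42 in the EPZ5676 bulk libraries, 0.81 to 0.83 in DMSO low cells and 3.0 to 3.06 in DMSO high cells. In bulk RNA, more cells of a kind and more RNA per cell of that kind cannot be told apart. Depth ran from 13383741 to 26311674 gene counts in the 6 bulk libraries. Reads on no annotated feature made up 22.7% and 28.7% of EPZ5676 bulk replicates 1 and 3, against 13.5% to 14.2% of the other 4.

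**Figure D1:**
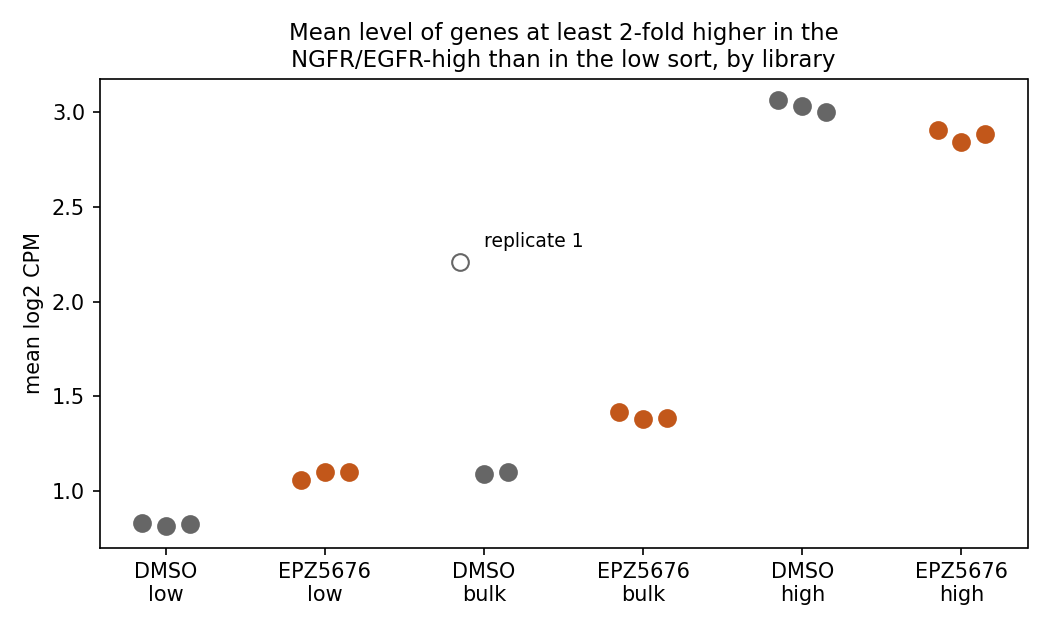
Mean log2 CPM, in each of the 18 libraries, of the 2321 genes at least 2-fold higher in the high than in the low sort under DMSO; each circle is 1 library, grey for DMSO and orange for EPZ5676, and the open circle is DMSO bulk replicate 1. That library sits at 2.21, between the low and the high sort, while the other DMSO bulk libraries at 1.09 and 1.10 lie below the 3 EPZ5676 bulk libraries.

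With all 3 DMSO libraries, 132 of 18121 genes passed an adjusted p of 0.05 (0.728%). Of these, 90 were higher in EPZ5676 (0.497% of genes tested) and 42 lower (0.232%), and 25 of the higher and 0 of the lower genes changed at least 2-fold. Without DMSO bulk replicate 1, 550 of 18784 genes passed (2.93%), 371 of them higher (1.98%) and 179 lower (0.953%), with 91 higher and 2 lower by at least 2-fold. The calls came from edgeR's quasi-likelihood test with Benjamini-Hochberg adjustment, in which all groups shared 1 estimate of the spread. The common dispersion of that fit fell from 0.0142 to 0.00842 when the outlying library was left out. Both comparisons called 88 higher and 37 lower genes in common, which is 97.8% of the higher and 88.1% of the lower genes of the first and 23.7% and 20.7% of those of the second. The 2 comparisons share all libraries but 1, so this overlap is no independent support. A fit to the 6 bulk libraries alone, in which the spread was estimated from these alone, called 2 genes, CD22 and ST6GALNAC2. Without DMSO bulk replicate 1 the same kind of fit called 993. The genes that rose without replicate 1 had a median log2 fold change of 0.66 at a median level of 10.9 CPM in replicates 2 and 3, and those that fell -0.28 at 101.5 CPM, as the plot of fold change by level shows.

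**Figure D2:**
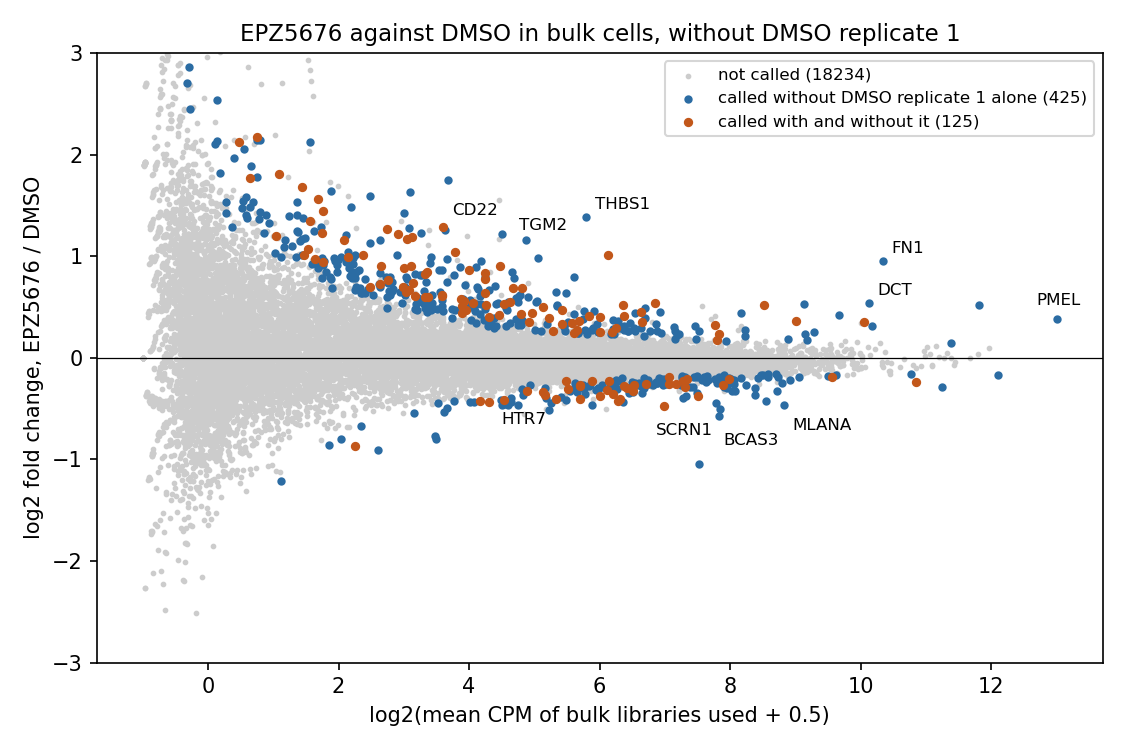
Log2 fold change of EPZ5676 over DMSO in bulk cells without DMSO bulk replicate 1 (vertical axis, cut at 3 in either direction, with 131 genes beyond it, 7 of them called) against the log2 of the mean CPM of the bulk libraries used plus 0.5. Orange points were called with and without that library (125 genes), blue points without it alone (425 genes) and grey points were not called (18234 genes).

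DOT1L (ENSG00000104885), the target of EPZ5676, was measured as a check of its own RNA only, since the compound acts on the enzyme. DOT1L stood at 169, 147 and 131 CPM in DMSO bulk replicates 1 to 3 and at 127, 121 and 127 in EPZ5676 bulk replicates 1 to 3. All EPZ5676 values lay below all DMSO values, yet the difference passed in neither comparison (log2 fold change -0.25 ± 0.068, adjusted p = 0.0884 with 3 DMSO libraries, and -0.16 ± 0.056, adjusted p = 0.136 without replicate 1). DOT1L passed with 3 DMSO libraries under 3 of the alternatives run: in DESeq2 (adjusted p = 0.0418), in edgeR with no filter on low counts (0.0174) and in edgeR without DMSO bulk replicate 3 (-0.34, 0.00896). Of 9 tested genes of DOT1L and its partners in transcription elongation, 1 rose and 0 fell in both comparisons, and the list's median was -0.023 without replicate 1 beside 0.0046 over all genes. The gene that rose was AFF3, a scaffold protein related to the core of the super elongation complex. AFF3 stood at 15.2, 15.5 and 15.1 CPM under DMSO and 23.4, 21.2 and 21.4 under EPZ5676, with nearly equal levels in all 3 DMSO libraries (0.53 ± 0.087, adjusted p = 0.00442, and 0.52 ± 0.10, adjusted p = 0.00137). The HOXA, MEIS and PBX genes, through which DOT1L inhibition is known to act in leukaemia, held 0 called genes among 13 tested in either comparison. Their median was -0.019 with 3 DMSO libraries and 0.17 without replicate 1. Of all genes tested, 0.728% and 2.93% were called, so 0 of 13 says little about these genes.

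Among 39 tested histone lysine methyltransferases and demethylases, 0 rose and 1 fell with 3 DMSO libraries, and 0 rose and 2 fell without replicate 1. Of all genes tested, 0.497% rose and 0.232% fell with 3 DMSO libraries, and 1.98% and 0.953% without replicate 1. Counts in this list and the lists below are to be read beside these shares. EZH2, the enzyme of the Polycomb repressive complex that methylates another lysine of histone H3, was the listed gene that fell in both comparisons. EZH2 stood at 174, 162 and 150.3 CPM under DMSO and 129, 132 and 133 under EPZ5676 (-0.31 ± 0.054, adjusted p = 0.0073, and -0.26 ± 0.052, adjusted p = 0.00263). Its 2 groups did not overlap. Such separation, here and in other genes, only describes the values, since the share of all genes without overlap was not counted. KDM1A, a histone demethylase, was the other gene that fell without replicate 1 (-0.21 ± 0.051, adjusted p = 0.0142; -0.10 with it), and it lost its call without DMSO bulk replicate 2, DMSO bulk replicate 3 or EPZ5676 bulk replicate 3 (adjusted p up to 0.175). Without DMSO bulk replicates 1 and 2 together the EZH2 call was lost (adjusted p = 0.192), which leaves 1 DMSO library, assumed to vary like the other groups.

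A group of genes rose both with and without DMSO bulk replicate 1. The rule that named the largest changes asked for groups that do not overlap, so the separation of the libraries in those genes is a description and supports nothing. CD22 (ENSG00000012124), a sialic acid-binding receptor best known from B cells, stood at 7.74, 6.79 and 6.80 CPM under DMSO and 16.1, 17.4 and 16.0 under EPZ5676. Its log2 fold change was 1.22 ± 0.14 (adjusted p = 6.6e-05) with 3 DMSO libraries and 1.28 ± 0.14 (adjusted p = 3.37e-07) without replicate 1. DMSO bulk replicate 1 lay close to its group. ST6GALNAC2 (ENSG00000070731), an enzyme that attaches sialic acid to sugar chains on proteins, stood at 7.80, 8.21 and 9.05 CPM against 17.1, 18.6 and 17.8 (1.09 ± 0.12, adjusted p = 5.01e-05, and 1.04 ± 0.13, adjusted p = 1.02e-06). CYP26B1 (ENSG00000003137), which breaks down retinoic acid, stood at 7.13, 5.42 and 4.50 CPM against 11.7, 10.2 and 12.3 (1.01 ± 0.14, adjusted p = 0.000685, and 1.19 ± 0.14, adjusted p = 1.02e-06). CYP26B1 was the 1 called gene among 12 tested of the retinoic acid pathway.

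C11orf96 stood at 9.68, 13.5 and 16.6 CPM under DMSO and 29.1, 28.0 and 27.9 under EPZ5676, a change of 1.09 ± 0.14 with 3 DMSO libraries and 0.91 ± 0.11 without replicate 1. NMRK2, a kinase of NAD synthesis from nicotinamide riboside, stood at 0.731, 4.48 and 4.03 CPM against 9.77, 10.8 and 8.91 (1.65 ± 0.34 and 1.22 ± 0.17). DMSO bulk replicate 1 was the lowest library in both genes, and also in ZNF114, a zinc finger protein (1.89, 4.05 and 5.54 against 10.4, 10.9 and 11.2 CPM), and PLXNA2, a semaphorin receptor (5.42, 13.2 and 14.0 against 22.8, 24.8 and 22.3 CPM). SEMA6B, a membrane-bound semaphorin, stood at 6.76, 3.58 and 3.66 CPM against 8.67, 8.38 and 9.36, with DMSO bulk replicate 1 the highest of its group and still below every EPZ5676 library (0.93 ± 0.18 and 1.27 ± 0.16). Leaving each of the other 5 libraries out of the comparison with 3 DMSO libraries, CD22, ST6GALNAC2, CYP26B1, C11orf96 and AFF3 kept their calls. NMRK2, ZNF114 and PLXNA2 lost theirs without any 1 of the EPZ5676 libraries (adjusted p up to 0.161, 0.073 and 0.171). SEMA6B lost its call without DMSO bulk replicate 2 and without any 1 EPZ5676 library (adjusted p up to 0.0768). Without DMSO bulk replicate 1, all 9 of these genes kept their calls with each further library left out.

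MET, the receptor of hepatocyte growth factor, stood at 18.1, 19 and 20.1 CPM under DMSO and 26.0, 30.8 and 29.2 under EPZ5676 (0.59 ± 0.096, adjusted p = 0.00423, and 0.55 ± 0.10, adjusted p = 0.00087). PPARGC1A, a coactivator of mitochondrial biogenesis, stood at 8.83, 13.7 and 15.1 CPM against 24.9, 20.4 and 22.5 (0.84 ± 0.14, adjusted p = 0.00654, and 0.64 ± 0.11, adjusted p = 0.000652). Neither gene overlapped between the groups, which is a description only, without the share of all genes that do the same. Both missed the threshold without DMSO bulk replicates 1 and 2 together (adjusted p = 0.0509 for MET and 0.0572 for PPARGC1A). A2M, a secreted protease inhibitor named here after its values were seen, had the smallest adjusted p without replicate 1. It stood at 76.1, 42.8 and 49.3 CPM against 93.9, 96 and 89.2 (0.73 ± 0.15, adjusted p = 0.0327, and 1.01 ± 0.068, adjusted p = 3.19e-12). Its groups did not overlap. The A2M call without replicate 1 was kept with each further library left out, and the call with it was lost without DMSO bulk replicate 3 or any 1 EPZ5676 library (adjusted p up to 0.129).

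Lower on the list of genes that rose in both comparisons were PRKCB and HLA-DPA1. PRKCB, a protein kinase C, stood at 3.11, 4.48 and 6.15 CPM under DMSO and 9.64, 10.8 and 8.84 under EPZ5676 (1.09 ± 0.21 and 0.88 ± 0.19). HLA-DPA1, a chain of an antigen-presenting complex, stood at 0.609, 1.05 and 0.844 CPM against 1.88, 2.27 and 2.40 (1.37 ± 0.28 and 1.2 ± 0.33) and was the 1 called gene among 23 of antigen presentation. The calls of both genes did not hold over all libraries. With 3 DMSO libraries PRKCB lost its call without EPZ5676 bulk replicate 1 or 2, and HLA-DPA1 without EPZ5676 bulk replicate 2 or 3 (adjusted p up to 0.105 and 0.105). Without DMSO bulk replicate 1, PRKCB lost its call without DMSO bulk replicate 2 (adjusted p = 0.226), and HLA-DPA1 in all cases but the one without EPZ5676 bulk replicate 1 (up to 0.279).

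**Figure D3:**
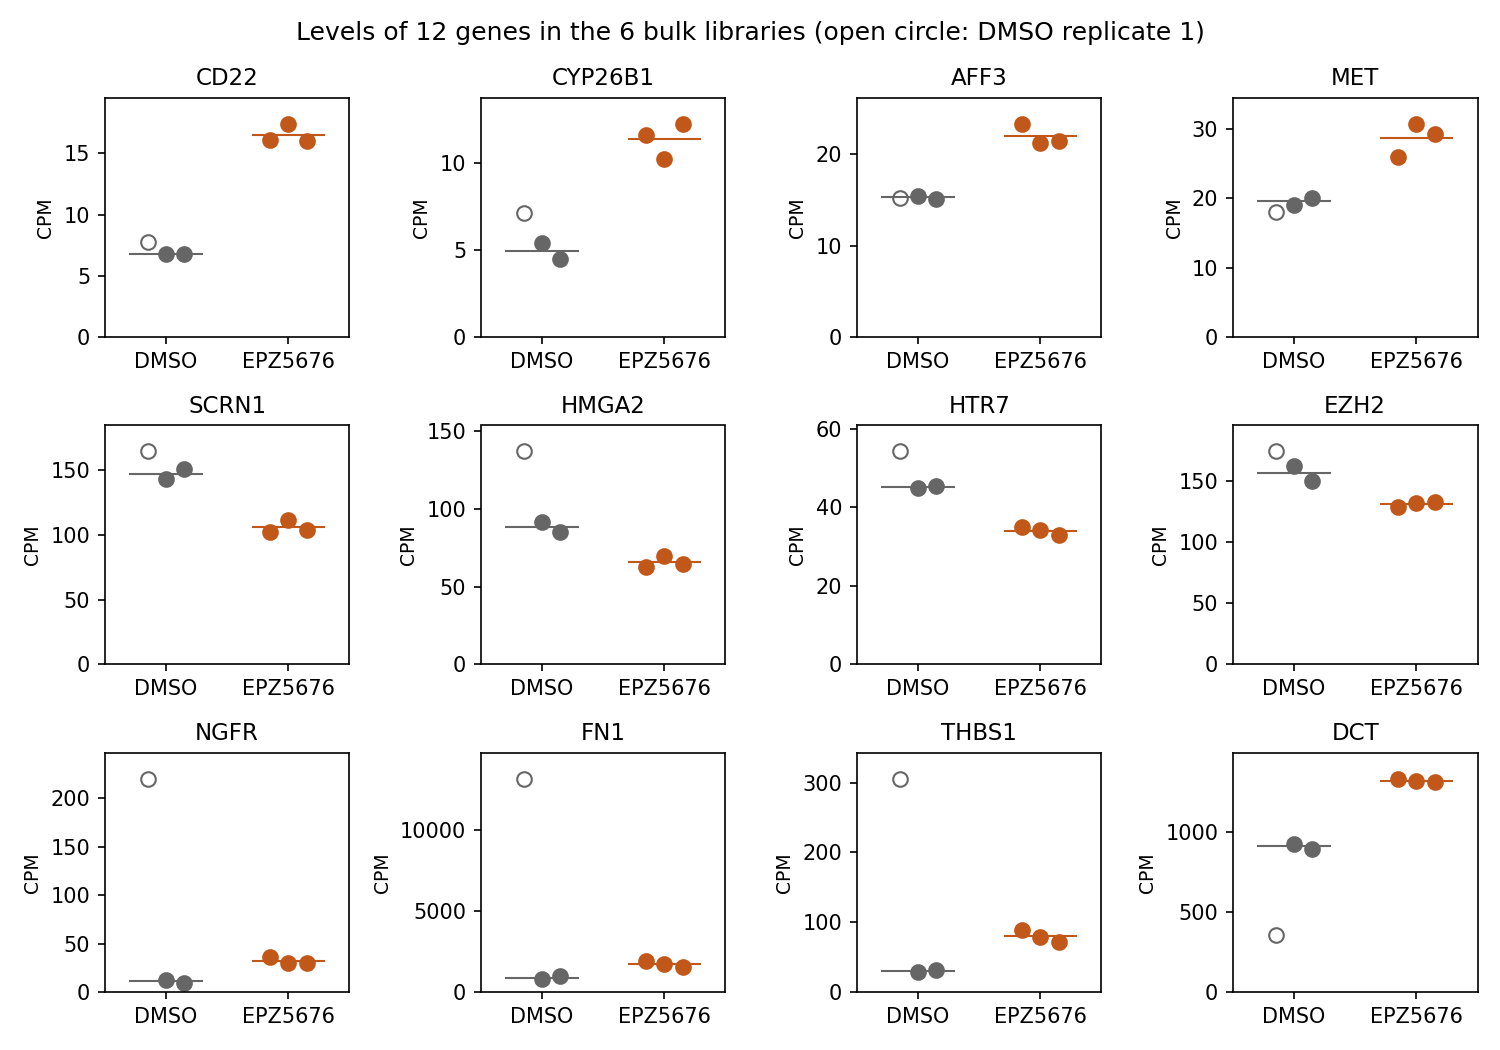
CPM of 12 genes in the 6 bulk libraries (vertical axes start at 0); each circle is 1 library in the order of its replicate number, the open circle is DMSO bulk replicate 1 and the lines are means, for DMSO without that library. In the top row and the middle row the open circle lies on the DMSO side of the EPZ5676 libraries, while for NGFR, FN1 and THBS1 it lies far above all other libraries and for DCT far below.

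The falling genes included SCRN1, HTR7 and HMGA2. SCRN1 (ENSG00000136193), known for a role in exocytosis, stood at 164, 143 and 151 CPM under DMSO and 102, 111 and 103 under EPZ5676 (-0.53 ± 0.061, adjusted p = 6.6e-05, and -0.48 ± 0.058, adjusted p = 1.35e-06). HTR7 (ENSG00000148680), a serotonin receptor, stood at 54.3, 44.9 and 45.4 CPM against 35.0, 34.3 and 33.0 (-0.50 ± 0.076, adjusted p = 0.00193, and -0.41 ± 0.071, adjusted p = 0.000465). HMGA2 (ENSG00000149948), a chromatin protein of embryonic and tumour cells that the let-7 miRNAs repress, stood at 137, 91.8 and 84.9 CPM against 62.9, 69.5 and 64.5 (-0.67 ± 0.13, adjusted p = 0.025, and -0.43 ± 0.064, adjusted p = 4.08e-05). DMSO bulk replicate 1 was the highest library in each of the 3 genes. HMGA2 was the 1 called gene among 9 tested HMGA2, let-7 and oncofetal genes, whose median was -0.16 without replicate 1.

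WIPF1, which binds the actin regulator WASP, fell by a smaller amount without replicate 1 (115, 80.7 and 84.7 against 59.8, 67.6 and 66.5 CPM; -0.53 ± 0.10 and -0.36 ± 0.069). POU3F2, the neural transcription factor also called BRN2, stood at 65.4, 56.9 and 60.0 CPM against 44.6, 43.2 and 45.1 (-0.46 ± 0.085 and -0.40 ± 0.083). IGF1R, the receptor of insulin-like growth factors, stood at 124, 112 and 114 CPM against 93.6, 94.2 and 96.8 (-0.30 ± 0.057 and -0.26 ± 0.057). TNFRSF10B, a death receptor of TRAIL and a p53 target, stood at 105, 102 and 97.6 CPM against 81.1, 81.2 and 87.1 (-0.29 ± 0.054 and -0.27 ± 0.057). DUSP4, a phosphatase that ERK signalling induces, stood at 919, 795 and 809 CPM against 692, 706 and 712 (-0.26 ± 0.056 and -0.19 ± 0.047). With 3 DMSO libraries, SCRN1, HTR7 and EZH2 kept their calls with each of the other libraries left out, and HMGA2, WIPF1 and DUSP4 lost theirs without any 1 EPZ5676 library (adjusted p up to 0.126, 0.109 and 0.153). POU3F2, IGF1R and TNFRSF10B lost theirs without EPZ5676 bulk replicate 1 and without replicate 2 (adjusted p up to 0.0749, 0.073 and 0.0806). Without DMSO bulk replicate 1, SCRN1, HTR7 and HMGA2 kept their calls with each further library left out. WIPF1 and POU3F2 missed the threshold without DMSO bulk replicate 3 (adjusted p = 0.0517 and 0.0736) and TNFRSF10B without DMSO bulk replicate 2 (0.154). IGF1R missed it without either of the 2 (0.0678 and 0.0898), and DUSP4 in 4 of the 5 cases, all but the one without EPZ5676 bulk replicate 3 (adjusted p up to 0.147).

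Other genes that fell in both comparisons included MID1IP1, a regulator of lipid synthesis, at 48.4, 37.8 and 39.5 CPM under DMSO and 30.8, 31.0 and 30.0 under EPZ5676 (-0.45 ± 0.080 and -0.34 ± 0.073). UBASH3B, a phosphatase of receptor signalling, stood at 79.5, 55.6 and 56.6 CPM against 46.9, 45.2 and 47.2 (-0.46 ± 0.094 and -0.28 ± 0.062). CGAS, the cytosolic DNA sensor, stood at 21.9, 18.3 and 21.7 CPM against 15.5, 15.0 and 14.3 (-0.46 ± 0.10 and -0.42 ± 0.11). CRYBG1 stood at 39.1, 25.1 and 26.6 CPM against 21.7, 18.7 and 17.8 (-0.64 ± 0.13 and -0.42 ± 0.093). MID1IP1 kept its call with 3 DMSO libraries whichever of the others was left out, and lost it without DMSO bulk replicates 1 and 3 together (adjusted p = 0.0961). With 3 DMSO libraries, UBASH3B and CGAS lost theirs without any 1 EPZ5676 library, CGAS also without DMSO bulk replicate 3, and CRYBG1 without EPZ5676 bulk replicate 2 or 3. Without replicate 1, the 3 lost theirs without DMSO bulk replicate 3 or EPZ5676 bulk replicate 2, UBASH3B also without DMSO bulk replicate 2 and the other 2 without EPZ5676 bulk replicate 3 (adjusted p up to 0.121, 0.136 and 0.121 with 3 DMSO libraries and 0.0961, 0.365 and 0.114 without replicate 1).

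The genes that moved in both comparisons had promoters of different median base composition by direction. The 250 bases upstream of the RefSeq start (GRCh38.p14) were at hand for 11659 of the 18784 genes tested, with a median GC content of 64.8% and a median of 21 CpG dinucleotides. For the genes lower in both comparisons, 26 of 37 had a promoter, with medians of 75.4% and 30. For those higher in both, 61 of 88 had one, with medians of 61.2% and 13. The quartiles ran from 56.8% to 72.0% GC over all genes tested, from 64.6% to 78.8% in the lower and from 53.6% to 70.8% in the higher genes. Among all genes called without replicate 1 the groups lay closer together, at 67.2% GC in 137 promoters of lower genes and 65.2% in 267 promoters of higher genes. GC content is also known to move with library preparation, and its part in these calls was not tested. The upstream bases of 4 genes are shown, from 7 CpGs in CD22 to 41 in HTR7, with each CpG in capitals and each sequence on the strand of its gene, 5′ to 3′. Of the named largest changes with 3 DMSO libraries that had an entry in the promoter table, they were the 2 per direction with the smallest p without replicate 1. CD22 lies on the plus strand at chr19:35328937-35329186 (52.8% GC), and the other 3 on the minus strand, CYP26B1 at chr2:72147863-72148112 (62.8%), SCRN1 at chr7:29989802-29990051 (74.0%) and HTR7 at chr10:90858040-90858289 (81.2%).
CD22: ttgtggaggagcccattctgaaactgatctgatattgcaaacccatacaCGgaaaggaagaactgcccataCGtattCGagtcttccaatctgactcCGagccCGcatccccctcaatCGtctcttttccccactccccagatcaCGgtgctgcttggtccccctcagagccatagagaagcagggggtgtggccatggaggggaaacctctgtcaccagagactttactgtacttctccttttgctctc
CYP26B1: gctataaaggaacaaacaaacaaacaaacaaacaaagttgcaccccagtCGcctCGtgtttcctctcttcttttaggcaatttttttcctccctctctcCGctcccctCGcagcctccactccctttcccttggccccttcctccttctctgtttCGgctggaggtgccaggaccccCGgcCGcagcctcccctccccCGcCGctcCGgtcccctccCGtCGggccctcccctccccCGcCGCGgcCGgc
SCRN1: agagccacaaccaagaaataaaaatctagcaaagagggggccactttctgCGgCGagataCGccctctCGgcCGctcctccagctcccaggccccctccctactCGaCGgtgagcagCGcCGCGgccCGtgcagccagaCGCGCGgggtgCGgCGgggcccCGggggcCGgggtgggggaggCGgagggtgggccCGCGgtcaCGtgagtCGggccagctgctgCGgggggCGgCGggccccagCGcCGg
HTR7: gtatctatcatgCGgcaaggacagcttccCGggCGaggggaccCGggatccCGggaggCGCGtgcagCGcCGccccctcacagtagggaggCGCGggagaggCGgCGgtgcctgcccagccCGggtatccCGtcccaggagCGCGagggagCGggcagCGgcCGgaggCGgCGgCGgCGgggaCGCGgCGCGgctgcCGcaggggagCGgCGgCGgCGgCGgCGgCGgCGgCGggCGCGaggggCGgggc
The rising pair, CD22 and CYP26B1, held 7 and 16 CpGs, and the falling pair, SCRN1 and HTR7, held 28 and 41. The letters TGANTCA, the binding motif of AP-1 factors, were searched on both strands. They stood in 8 of the 61 promoters of genes higher in both comparisons (13.1%), in 0 of the 26 of genes lower in both, and in 4.17% of all promoters of that length. Among all genes called without replicate 1 they lay nearer to that share, in 17 of 267 promoters of higher genes (6.37%) and 2 of 137 of lower genes (1.46%). These differences between small groups were not tested. TATAAA, the letters of the TATA box, was searched on both strands anywhere in the 250 bases, so a match need not be a TATA box. It stood in 11.5% of promoters of genes higher in both, 7.69% of those lower in both and 5.76% of all promoters. The other motifs are given in the same order. Overlapping with each other in part, the E-box letters CANNTG stood in 50.8%, 42.3% and 53.8%, CACGTG in 9.84%, 11.5% and 8.67%, and CATGTG, an MITF site, in 4.92%, 3.85% and 5.86%. GGAATG, the letters of TEAD factors, stood in 6.56%, 11.5% and 9.5%.

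The median change of genes of the NGFR- and EGFR-high state lay on opposite sides of 0 in the 2 comparisons. NGFR (ENSG00000064300), the neurotrophin receptor used in the sort, stood at 220.3, 12.6 and 9.24 CPM under DMSO and 35.6, 29.9 and 30.2 under EPZ5676. DMSO bulk replicate 1 lay far above all other libraries, and the EPZ5676 libraries lay above DMSO bulk replicates 2 and 3. The difference passed in neither comparison (-1.33 ± 0.90, adjusted p = 0.602 with 3 DMSO libraries, and 1.55 ± 0.39, adjusted p = 0.063 without replicate 1). Without replicate 1 NGFR passed under 5 of 16 alternatives: bulk libraries only (adjusted p = 2.4e-07), limma-voom (0.0019), estimation not robust (0.0033), a mean of at least 5 CPM (0.0471) and DESeq2 (0.0478). EGFR (ENSG00000146648), the other receptor of the sort, stood at 28.9, 9.48 and 9.62 CPM against 12, 12.7 and 11.2, again with the first DMSO library the highest (-0.39 ± 0.34, adjusted p = 0.705, and 0.33 ± 0.12, adjusted p = 0.154). EGFR passed without replicate 1 under 1 of 16 alternatives, the share of reads on no feature as a covariate (0.47, adjusted p = 0.0359). Of the 2321 genes at least 2-fold higher in the high sort, 6 rose and 2 fell with 3 DMSO libraries, with a median of -0.18 and 31.5% above 0. Without replicate 1, 213 rose and 2 fell, with a median of 0.25 and 74.8% above 0. Over all genes tested the medians were -0.011 and 0.0046, with 47.4% and 50.9% above 0. For the 1095 genes at least 2-fold lower in the high sort, 25 rose and 0 fell with 3 DMSO libraries (median 0.18), and 45 rose and 46 fell without replicate 1 (median 0.028).

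Of 16 rare-cell resistance markers, genes known from WM989 cells that survive targeted therapy, 6 rose and 0 fell without replicate 1 (median 0.65), against 0 and 0 with it (median -0.53). Over all genes tested, 1.98% rose and 0.953% fell without replicate 1, and 0.497% and 0.232% with it. LOXL2, which cross-links collagen, stood at 109, 18.3 and 19.9 CPM under DMSO and 27.6, 27.6 and 29 under EPZ5676, and rose by 0.55 ± 0.086 without replicate 1 (adjusted p = 0.000127; -0.79 with it, adjusted p = 0.582). Its EPZ5676 libraries lay above DMSO bulk replicates 2 and 3 and below replicate 1. The LOXL2 call was kept with each further library left out. PDGFC and VEGFC, growth factors of mesenchymal cells and of lymph vessels, rose by 0.62 ± 0.15 and 0.91 ± 0.21 (-0.10 and -0.54 with replicate 1). Both calls were lost without DMSO bulk replicate 2, DMSO bulk replicate 3 or EPZ5676 bulk replicate 1, and that of PDGFC also without EPZ5676 bulk replicate 3 (adjusted p up to 0.232 and 0.16).

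Collagens and other matrix genes showed the same layout. Of 17 collagens tested, 7 rose and 0 fell without replicate 1 (median 0.51), and 0 passed in either direction with it (median -0.79). COL6A3, a chain of the microfibrillar collagen VI, stood at 67.6, 4.84 and 6.0 CPM under DMSO and 13.0, 12.9 and 12.5 under EPZ5676 (1.23 ± 0.12 without replicate 1, adjusted p = 1.87e-08; -1.0 with it). COL6A1, its partner chain, stood at 1059, 159 and 155 CPM against 202, 185 and 199 (0.31 ± 0.054, adjusted p = 0.000507; -1.23 with it). In both chains the first DMSO library exceeded every other library and the EPZ5676 libraries exceeded the other 2 DMSO libraries. COL5A2, of a fibrillar collagen (71.4, 8.11 and 8.21 against 18.1, 15.3 and 14.7 CPM), rose by 0.97 ± 0.11, and COL18A1, of a basement membrane collagen (37.7, 6.37 and 6.90 against 12.2, 11.2 and 11.8 CPM), by 0.82 ± 0.12. All 4 collagen calls were kept with each further library left out.

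Of 45 laminins, integrins and other matrix genes, 12 rose and 0 fell without replicate 1 (median 0.21), against 1 and 0 with it (median -0.21). The gene that rose in both was SPARC, a collagen-binding matrix protein named here after its values were seen, at 948, 914 and 956 CPM under DMSO and 1174, 1230 and 1173 under EPZ5676 (0.34 ± 0.049, adjusted p = 0.000828, and 0.35 ± 0.048, adjusted p = 8.96e-06). Its 3 DMSO libraries lay close together below all EPZ5676 libraries, and its calls in both comparisons were kept with each other library left out. FN1, the fibronectin of the matrix, stood at 13180, 804 and 968 CPM under DMSO and 1902, 1708 and 1532 under EPZ5676. Its change was 0.95 ± 0.13 without replicate 1 (adjusted p = 0.00201) and -1.54 ± 0.78 with it (adjusted p = 0.459). THBS1, the matricellular protein thrombospondin 1, stood at 306, 29 and 32.0 CPM against 88.5, 79.4 and 71.4 (1.38 ± 0.17, adjusted p = 0.000909; -0.61 with replicate 1). Replicate 1 of DMSO was far above the others in both genes. SERPINE2, a protease inhibitor, rose by 0.53 ± 0.050 and TIMP3, an inhibitor of metalloproteinases, by 0.42 ± 0.049. ITGA3, a laminin-binding integrin, rose by 0.45 ± 0.052 and LAMB3, a laminin chain, by 0.70 ± 0.087. With replicate 1 these 4 stood at -0.36, -0.13, -0.73 and -0.37. Of these 6 genes, FN1 alone lost its call with a further library left out, DMSO bulk replicate 2 (adjusted p = 0.0524).

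Other secreted or matrix-modifying proteins among the largest changes without replicate 1 were SPP1, TGM2, CEMIP and MATN2. SPP1, the secreted phosphoprotein osteopontin, stood at 47.1, 6.64 and 7.37 CPM under DMSO and 16.5, 16.8 and 17.3 under EPZ5676 (1.26 ± 0.11, adjusted p = 3.28e-09; -0.24 with replicate 1). TGM2, a protein cross-linking enzyme, stood at 89.5, 12.7 and 13.8 CPM against 31.1, 28.3 and 33.8 (1.21 ± 0.094, adjusted p = 2.6e-09; -0.30 with it). CEMIP, which takes part in breaking down hyaluronan, rose by 1.75 ± 0.19 and MATN2, a filament-forming matrix protein, by 1.48 ± 0.19. Each of the 4 had its highest level in DMSO bulk replicate 1, and all 4 calls were kept with each further library left out. AP-1 and immediate early genes, which include transcription factors of this state, held 0 called members among 23 in either comparison, with a median of 0.21 without replicate 1 and -0.20 with it. Of 20 genes of the undifferentiated and EMT state, 4 rose and 0 fell without replicate 1 (median 0.089) and 0 passed with it (median -0.49). Beside FN1 these were TWIST1, a transcription factor of mesenchymal cells (0.28 ± 0.062; -0.28 with replicate 1), CAV1, the coat protein of caveolae (0.36 ± 0.063; -0.71), and ANXA1, a phospholipid-binding protein (1.43 ± 0.30; -0.98). All 4 lost their calls without DMSO bulk replicate 2, TWIST1 and ANXA1 also without replicate 3, and ANXA1 without EPZ5676 bulk replicate 1 or 3 (adjusted p up to 0.119 for TWIST1, 0.0683 for CAV1 and 0.235 for ANXA1).

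Pigmentation genes did not move as 1 group. Of 25 tested, 2 rose and 0 fell with 3 DMSO libraries (median 0.16), ST6GALNAC2 and the transporter ABCB5, and 6 rose and 2 fell without replicate 1 (median 0.065). DCT, which works in the making of melanin, stood at 358, 922 and 894 CPM under DMSO and 1331, 1313 and 1312 under EPZ5676 (0.54 ± 0.051 without replicate 1, adjusted p = 9.8e-09; 0.86 ± 0.25, adjusted p = 0.167 with it). PMEL, which forms the fibrils of the melanosome, stood at 2968, 7040 and 7261 CPM against 9340, 9415 and 9169 (0.38 ± 0.054, adjusted p = 0.000533; 0.69, adjusted p = 0.25 with replicate 1). Here the first DMSO library was the lowest, and the EPZ5676 libraries were above all 3 DMSO libraries. MLANA, the melanocyte antigen MART-1, went the other way at 277, 508 and 549 CPM against 363, 399 and 386 (-0.47 ± 0.076, adjusted p = 0.000937; -0.22, adjusted p = 0.695 with replicate 1). ABCB5, named after its values were seen, stood at 3.29, 6.11 and 5.86 CPM against 8.35, 9.58 and 10.3 without overlap (0.87 ± 0.18, adjusted p = 0.0209, and 0.65 ± 0.16, adjusted p = 0.0153). With 3 DMSO libraries its call was lost without EPZ5676 bulk replicate 2 or 3, and without replicate 1 in all cases but the one without EPZ5676 bulk replicate 1 (adjusted p up to 0.107 and 0.154). The calls of DCT, PMEL and MLANA without replicate 1 were kept with each further library left out. Of 8 melanocyte lineage markers, 2 rose and 1 fell, and their summed level of 5006, 10270 and 10530 CPM under DMSO and 12830, 12970 and 12680 under EPZ5676 showed the labelled lineage in all 6 libraries.

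Among 20 neural crest and glial genes, 1 rose and 1 fell, POU3F2, with 3 DMSO libraries, and 3 rose and 1 fell without replicate 1. Among all genes tested, 1.98% rose and 0.953% fell without replicate 1. MBP, a myelin protein, stood at 321, 236 and 249 CPM under DMSO and 323, 338 and 329.7 under EPZ5676 (0.44 ± 0.052 without replicate 1, adjusted p = 6.67e-07; 0.30 ± 0.078, adjusted p = 0.0844 with it). L1CAM, a neural adhesion molecule, stood at 1570, 1009 and 1040 CPM against 1275, 1289 and 1269 (0.32 ± 0.041, adjusted p = 3.4e-06; 0.083 with it). In both genes the EPZ5676 libraries were close together and above DMSO bulk replicates 2 and 3, while DMSO bulk replicate 1 was level with them for MBP and above them for L1CAM. Of 27 semaphorins, plexins and guidance genes, 7 rose and 0 fell without replicate 1, and with it PLXNA2 rose and ROBO1, a receptor of slit proteins named after its values were seen, fell (-0.32 ± 0.074, adjusted p = 0.0469; -0.20, adjusted p = 0.0537 without replicate 1). The ROBO1 call was lost without any 1 EPZ5676 library (adjusted p up to 0.221). PLXNC1, a receptor of a membrane-bound semaphorin, rose by 0.93 ± 0.14 (adjusted p = 3.38e-05; 0.028 with it). MBP, L1CAM and PLXNC1 kept their calls without replicate 1 when each further library was left out. The secreted semaphorins SEMA3D and SEMA3E rose by 0.80 ± 0.18 and 0.78 ± 0.16, and both lost their calls without DMSO bulk replicate 2, SEMA3D also without EPZ5676 bulk replicate 2 (adjusted p up to 0.302 and 0.128). Of 19 neuronal and synaptic genes, SCRN1 fell and SYT7, a calcium sensor of exocytosis, rose (0.54 ± 0.15), a call kept only without EPZ5676 bulk replicate 2 when 1 further library was left out (adjusted p up to 0.269).

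Of 23 TGF-beta response genes, 6 rose and 0 fell without replicate 1 (median 0.15), against 0 and 0 with it (median -0.19). The shares over all genes without replicate 1 were 1.98% risen and 0.953% fallen. ID3, an inhibitor of basic helix-loop-helix factors, stood at 32.4, 17.6 and 18.1 CPM under DMSO and 40.9, 41.2 and 37.6 under EPZ5676. The groups did not overlap, and its change of 1.16 ± 0.11 passed without replicate 1 (adjusted p = 1.87e-08) and missed with it (0.82 ± 0.19, adjusted p = 0.0626). ID1, of the same family, stood at 30.4, 11.1 and 12.8 CPM against 24.8, 22.7 and 22.0 (0.95 ± 0.13, adjusted p = 3.68e-05; 0.37 with replicate 1). CCN2, a matricellular growth factor, stood at 73.4, 32.1 and 29.9 CPM against 50.1, 50.0 and 45.5 (0.65 ± 0.083, adjusted p = 5.22e-06; 0.11 with it). In ID1 and CCN2 the first DMSO library exceeded the EPZ5676 libraries, which exceeded the other 2. CCN2 was also the 1 called gene of 23 YAP/TEAD targets. LTBP2, a matrix protein related to the carriers of TGF-beta, rose by 0.89 ± 0.18 (-1.08 with replicate 1), a call lost without DMSO bulk replicate 2 (adjusted p = 0.0596).

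Of 41 receptor tyrosine kinases and ligands tested without replicate 1, 8 rose and 1 fell (median 0.24). With it, MET rose and IGF1R fell among 40. For this and the other lists of this paragraph, the shares over all genes without replicate 1 were 1.98% risen and 0.953% fallen. LIF, a cytokine of the interleukin-6 family, stood at 36.1, 12.8 and 13.4 CPM under DMSO and 20.4, 22.9 and 19.3 under EPZ5676 and rose by 0.68 ± 0.091 without replicate 1 (adjusted p = 6.85e-06; 0.033 with it). NFKBIZ, a nuclear regulator of NF-kB, stood at 263, 449 and 413 CPM against 344, 300 and 317 and fell (-0.43 ± 0.069, adjusted p = 0.000434; -0.23 with it). For NFKBIZ, DMSO bulk replicate 1 was the lowest of the 6 libraries, and for LIF the highest. These were the 2 called genes among 25 NF-kB and cytokine genes, 1 in each direction. RIPK4, a kinase of epithelial differentiation, stood at 191, 260 and 276 CPM against 189.5, 189.8 and 188 (-0.51 ± 0.071, adjusted p = 5.69e-05), and BCAS3 at 173, 265 and 279 against 169.6, 187 and 193 (-0.57 ± 0.066, adjusted p = 1.02e-06). With replicate 1 they stood at -0.36 and -0.39 and did not pass. The calls of ID3, ID1, CCN2, LIF, NFKBIZ, RIPK4 and BCAS3 were kept with each further library left out. Of 38 interferon response genes tested, 2 rose and 0 fell without replicate 1, the antiviral membrane protein IFITM3 (0.53 ± 0.10) and the nucleotide kinase CMPK2 (0.78 ± 0.18). Of 19 MAPK output genes, DUSP4 fell and PHLDA1 (0.27 ± 0.049) and the ephrin receptor EPHA2 (0.59 ± 0.12) rose. Of 25 WNT pathway genes, 3 rose and 0 fell, the receptor FZD8 (0.93 ± 0.16), the transcription factor TCF7 (1.25 ± 0.25) and the secreted inhibitor NOTUM (2.05 ± 0.44). Of these 7 rising genes, FZD8 alone kept its call with each further library left out. PHLDA1 and CMPK2 lost theirs without DMSO bulk replicate 2, CMPK2 also without EPZ5676 bulk replicate 2, and EPHA2, IFITM3, TCF7 and NOTUM without DMSO bulk replicate 3 (adjusted p from 0.0773 for IFITM3 to 0.309 for CMPK2).

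Among the metabolic lists, glycolysis and hypoxia held the most calls. Of 34 such genes, 0 rose and 4 fell without replicate 1 (median -0.096), and 0 passed with it (median -0.098). Over all genes tested without replicate 1, 1.98% rose and 0.953% fell (median 0.0046), so the falling genes of this list lay above that share. HK2, the hexokinase that starts glycolysis, stood at 414, 469 and 489.7 CPM under DMSO and 413, 397 and 407 under EPZ5676 (-0.24 ± 0.048, adjusted p = 0.00191), and ENO1, the glycolytic enolase, at 4334, 4605 and 4688 against 4035, 4254 and 4158 (-0.17 ± 0.034, adjusted p = 0.00302). EPZ5676 libraries lay below DMSO libraries in both genes. Both calls were lost without DMSO bulk replicate 3 as well (adjusted p = 0.0742 and 0.0686). The others that fell were PFKP, an enzyme of glycolysis (-0.18 ± 0.049), and the stress gene DDIT4 (-0.26 ± 0.064). PFKP lost its call whichever further library was left out, and DDIT4 without DMSO bulk replicate 3, EPZ5676 bulk replicate 1 or EPZ5676 bulk replicate 2 (adjusted p up to 0.282 and 0.289). PRDX1, a peroxide-reducing enzyme, stood at 959, 2642 and 2674 CPM under DMSO and 2089, 2324 and 2117 under EPZ5676 and fell without replicate 1 (-0.29 ± 0.054, adjusted p = 0.00201; 0.057 with it). It was the 1 called gene of 18 NRF2 targets and kept its call with each further library left out. Of 37 oxidative phosphorylation genes, PPARGC1A alone was called. 

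Lists of the cell cycle, stress and protein synthesis were read beside all genes tested, of which 1.98% rose and 0.953% fell without replicate 1. Each list here that held a call lay above the share in the direction of that call. This rests on 1 or 2 genes per list and direction. The calls of the mitosis, G1, heat shock and sterol lists were lost with single libraries left out. Among 55 mitosis genes 0 rose and 1 fell without replicate 1 (median -0.039), the spindle checkpoint gene MAD2L1 (-0.20 ± 0.054). Of 20 G1 genes, the kinase gene CDK2 (0.23 ± 0.058) and the inhibitor gene CDKN2B (0.24 ± 0.068) rose and the inhibitor gene CDKN2A (-0.28 ± 0.062) fell. Of 16 heat shock genes, the chaperone genes DNAJA1 (-0.20 ± 0.052) and CHORDC1 (-0.26 ± 0.063) fell, and of 33 genes of sterol and fatty acid synthesis the regulator SREBF1 (-0.25 ± 0.066). None of these 7 was called with 3 DMSO libraries, and all 7 lost their calls without DMSO bulk replicates 1 and 2 together (adjusted p from 0.114 for CDKN2A to 0.514 for CDKN2B). Without replicate 1, TNFRSF10B was the 1 called gene of 24 p53 targets, BIRC2 alone rose among 21 apoptosis regulators, and TGM2 and MYLK rose among 18 SRF and actin targets. The BIRC2 call was lost without DMSO bulk replicate 2 or 3 or EPZ5676 bulk replicate 1 or 3 (adjusted p up to 0.261), and the MYLK call without DMSO bulk replicate 2 (adjusted p = 0.422). For the lists without calls, 0 of 40 DNA replication genes (median -0.059) and 0 of 57 ribosomal protein genes (median -0.033) were called in either comparison. The same 0 held for 28 genes of amino acid response and ER stress (median -0.047) and 15 solute carriers and ion channels (median 0.049).

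**Figure D4:**
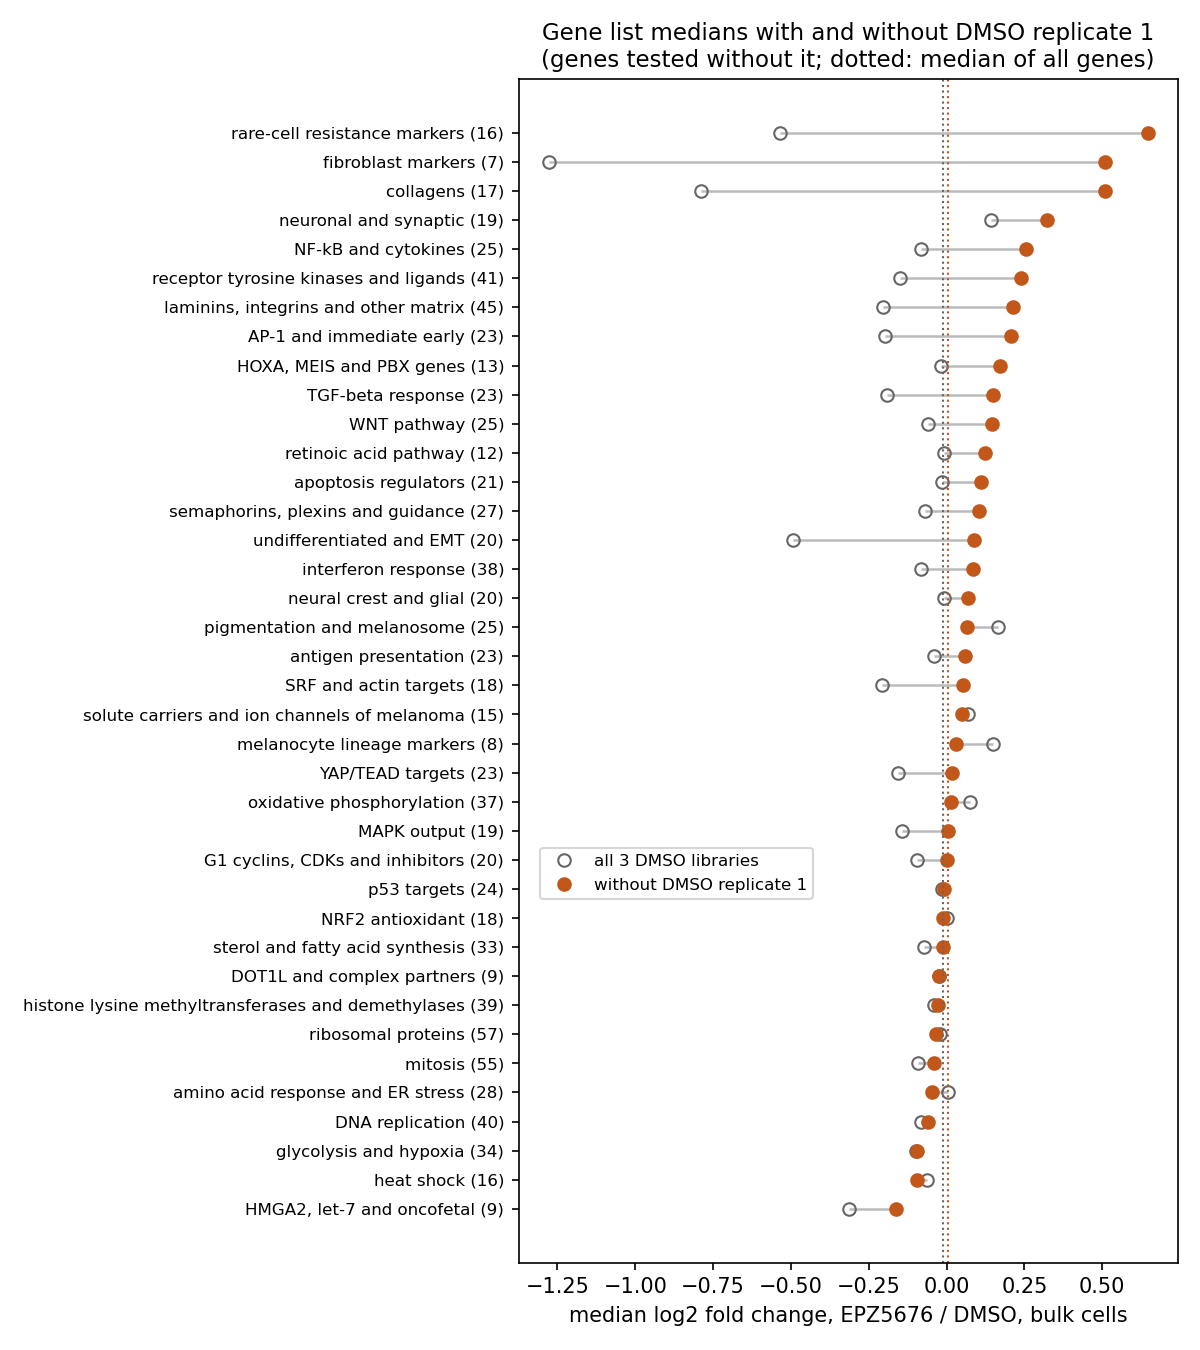
Median log2 fold change of EPZ5676 over DMSO in bulk cells for 38 gene lists, with all 3 DMSO libraries (open grey circles) and without DMSO bulk replicate 1 (orange); the number of genes tested without it stands beside each list and the dotted lines are the medians of all genes. Resistance markers, fibroblast markers and collagens lie on opposite sides of 0 in the 2 comparisons, at -0.53 and 0.65, -1.28 and 0.51, and -0.79 and 0.51.

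Markers of other cell types were read beside these lists. The 8 fibroblast markers summed to 430.2, 90.0 and 90.3 CPM under DMSO and 120.5, 116 and 118 under EPZ5676, against a mean of 1192 in DMSO high and 73.6 in DMSO low cells. They moved with the collagens, of which 3 are also in this list. Of the 7 tested, FAP, a surface protease, alone rose without replicate 1 (1.29 ± 0.37), a call lost whichever further library was left out (adjusted p up to 0.41). All 7 lay above 0 without replicate 1 (median 0.51), and 1 of the 7 with it (median -1.28). COL3A1, 1 of the 3 shared collagens, was at or near 0 in all 6 libraries, at most 0.426 CPM. Keratinocyte markers summed to between 29.4 and 34.1 CPM in the 6 libraries, with KRT10 the only 1 tested and 2 of 5 at 0 in all of them, and the 6 leukocyte markers to at most 2.72 CPM. Endothelial markers summed to 7.49, 2.53 and 3.75 CPM against 6.86, 8.46 and 5.84, and 2 of the 3 tested rose without replicate 1, the receptor KDR (1.78 ± 0.41) and the clotting factor carrier VWF (0.96 ± 0.21). Both calls were lost without DMSO bulk replicate 2 or EPZ5676 bulk replicate 2 (adjusted p up to 0.325 and 0.223). The part of any other cell type in the results was not tested.

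Some RNAs that carry no poly(A) tail followed the share of reads on no feature. Replication-dependent histone genes summed to 40.7, 27.7 and 28.2 CPM under DMSO and 93.7, 38.6 and 130.4 under EPZ5676. The small nuclear RNA 7SK, named after its values were seen, stood at 1.46, 1.90 and 1.03 CPM against 194, 1.86 and 339.6. Both were highest in EPZ5676 bulk replicates 1 and 3, the libraries with 22.7% and 28.7% of reads on no feature. Of 10 histone genes tested, 0 passed in either comparison (median 2.03 without replicate 1). With both of these EPZ5676 libraries left out, 5 genes were called with 3 DMSO libraries and 173 without DMSO bulk replicate 1. With the share of reads on no feature as a covariate, 50 genes were called with 3 DMSO libraries. Without DMSO bulk replicate 1 that fit called 418, of which 361 were among the 550. Beyond these fits, the part of these reads in other results was not tested. All 12 mitochondrially encoded genes of the list stood at 0.

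The genes called in bulk cells were read in the sorted cells, which are other libraries. EPZ5676 raised 566 genes (3.01%) and lowered 402 (2.14%) in low cells, and raised 1099 (5.85%) and lowered 919 (4.89%) in high cells, in the fit without DMSO bulk replicate 1. With all 18 libraries the same contrasts called 129 higher and 59 lower genes in low cells, and 354 and 189 in high cells. That library is in neither contrast but enters the estimate of the spread, which bulk and sorted calls share. All calls in sorted cells in this paragraph are from the fit without it. Of the 371 genes that rose in bulk without replicate 1, 365 (98.4%) lay above 0 in low cells, where 49.95% of all genes did, and 253 of them rose there (68.2% of the bulk list and 44.7% of the low list). In high cells 233 (62.8%) lay above 0, 118 rose and 57 fell. Of the 179 genes that fell in bulk, 176 (98.3%) lay below 0 in low cells, 123 fell there (68.7% of the bulk list and 30.6% of the low list), 33 fell in high cells and 12 rose in high cells. Thus 95 rising and 25 falling genes were called alike in bulk, low and high cells. For the 90 rising genes of the comparison with 3 DMSO libraries, 90 lay above 0 in low and 85 in high cells, with 76 and 48 called. For its 42 falling genes, 42 lay below 0 in low and 37 in high cells, with 30 and 20 called.

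The bulk lists also differed in how they related to the sort itself. Under DMSO, 5700 genes (30.3%) were higher in high than in low cells and 5098 (27.1%) lower. Of the 371 genes that rose without replicate 1, 261 (70.4%) were among the former and 72 (19.4%) among the latter. Of the 90 that rose with 3 DMSO libraries, 19 (21.1%) were higher and 46 (51.1%) lower in the high sort. Most rising genes of the comparison without replicate 1 were thus genes of the high state, and most of those with it were not. DMSO bulk replicate 1 held genes of the high state far above the other DMSO bulk libraries (mean log2 CPM 2.21 against 1.09 and 1.10). With it in the DMSO group such genes could hardly be called higher in EPZ5676, so the contrast of the lists does not describe the treatment.

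**Figure D5:**
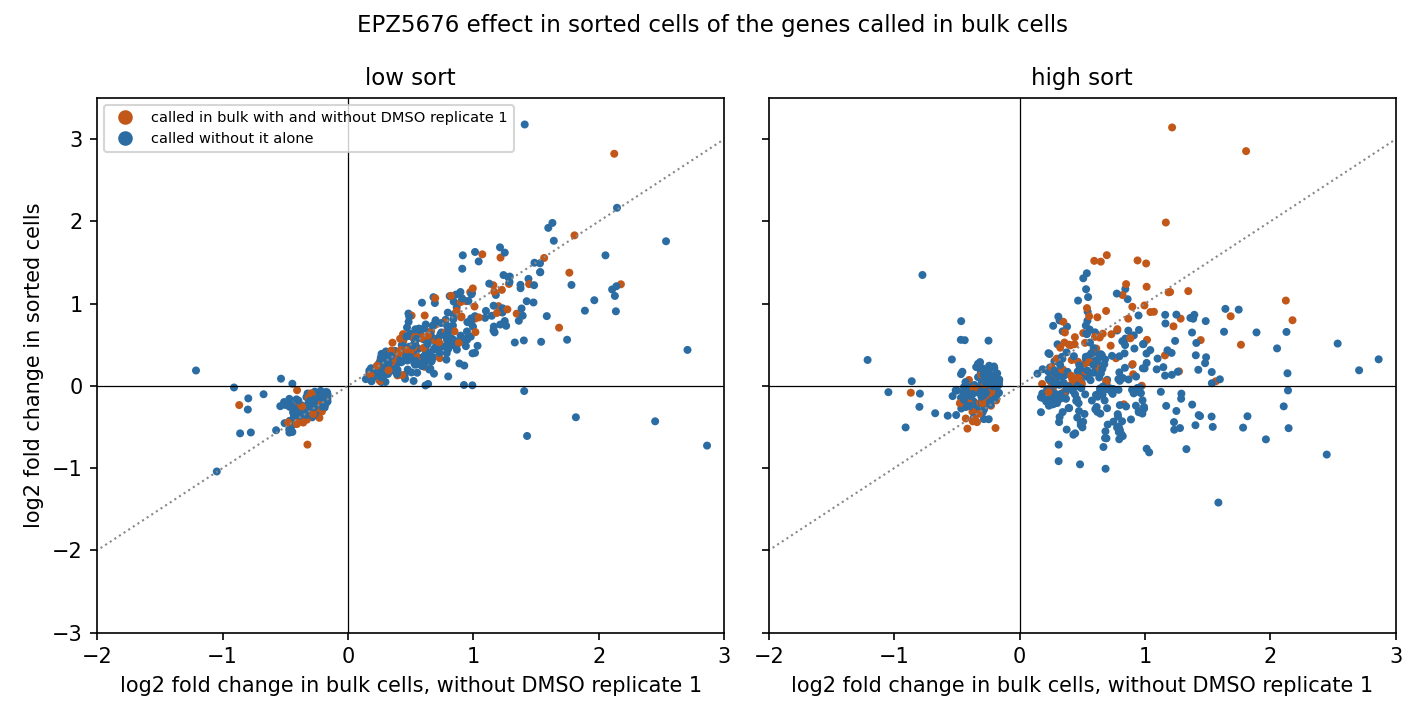
Log2 fold change of EPZ5676 over DMSO in low-sorted (left) and high-sorted cells (right), against that in bulk cells without DMSO bulk replicate 1, for the 550 genes called in bulk cells (7 lie outside the axes in each panel); orange genes were also called with that library. Nearly all points of the left panel share the sign of the bulk effect, 365 of 371 rising and 176 of 179 falling genes, while 233 and 117 do so in the right panel.

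Leading genes showed this side by side. CD22 rose by 1.24 ± 0.12 in low cells (adjusted p = 9.73e-09) and 0.82 ± 0.13 in high cells (adjusted p = 3.05e-05), next to 1.28 ± 0.14 in bulk. CYP26B1 rose by 0.89 ± 0.12 and 1.14 ± 0.12, and ST6GALNAC2 by 0.83 ± 0.11 and 0.90 ± 0.12. HMGA2 stood at -0.39 ± 0.058 and -0.40 ± 0.056, and SCRN1 at -0.45 ± 0.052 and -0.21 ± 0.052, all 4 passing. COL6A1, in contrast, rose in low cells (0.33 ± 0.049, adjusted p = 3.44e-05) and fell in high cells (-0.92 ± 0.048, adjusted p = 2.86e-15). NGFR did not pass in either sort (1.99 ± 0.59, adjusted p = 0.0868, and 0.35 ± 0.29, adjusted p = 0.561).

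The difference between the bulk effect and the effect in sorted cells was itself tested, without DMSO bulk replicate 1. Against low cells, 0 of 18784 genes passed (0% called, with 575 at an unadjusted p under 0.05). DESeq2 and limma-voom also called 0, with 431 and 556 at an unadjusted p under 0.05. This does not show that the effects were equal: for NGFR the difference was -0.44 ± 0.73. Against high cells, 946 genes passed (5.04%), 473 with the bulk effect above and 473 below the effect in high cells, or 412 above and 625 below when libraries were scaled by size alone. Among those with the smallest p and a bulk effect above were COL6A1 (difference 1.23 ± 0.073, adjusted p = 3.39e-13), MBP (1.02 ± 0.069), COL6A3 (1.67 ± 0.13), LIF (1.32 ± 0.11) and ANTXR2, a receptor that binds matrix proteins (1.18 ± 0.10). Those with a bulk effect below included DCT (-0.83 ± 0.067, adjusted p = 3.7e-10), which rose in bulk and rose more in high cells (1.37 ± 0.046). ETS1, a transcription factor (-0.58 ± 0.067), TUBB4A, a tubulin (-0.79 ± 0.095), and PLAT, a plasminogen activator (-0.65 ± 0.086), rose in high cells and did not pass in bulk. SPARC rose in both, by more in high cells (0.78 ± 0.042; difference -0.43 ± 0.063). FRMD4B (-0.80 ± 0.091) rose in high cells and fell in bulk, a bulk call that held only without EPZ5676 bulk replicate 3 when 1 further library was left out (adjusted p up to 0.242). With DMSO bulk replicate 1 in the fit, 18 genes passed against high cells, all 18 of them among the 946.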

How the data were processed

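The deposited values were raw read counts, 1 per Ensembl gene in each library. STAR, HTSeq and the hg19 build are named in the submitters' processing notes, without their order. Versions, annotation release and strand setting were not given in the sources used here. Without strand, overlapping and antisense genes cannot be told apart. The table had 63677 genes, of which 11151, with 0.922% of counts, could not be named, and 5 summary lines per library (reads on no feature 13.5% to 28.7% of the bulk libraries) that were left out. No 2 libraries were identical.

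Counts were filtered with filterByExpr, scaled with TMM factors and fitted with edgeR 4.0.16 (R 4.3.3; robust quasi-likelihood, means of 6 groups) over all 18 libraries, or over 17 without DMSO bulk replicate 1. The Benjamini-Hochberg adjustment ran over all genes tested in a comparison, with a threshold of 0.05. Fold changes are log2 ± SE, from the F statistic, and levels are CPM in the order of replicates 1 to 3. Cells were described by 43 gene lists with 1055 of 1062 members matched. Members, lists and comparisons were chosen with earlier results of these data known. Some lists share members.

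Named genes were DOT1L, NGFR and EGFR, the 10 largest called changes per direction (at least 5 CPM in the higher group, no overlap, no clones, antisense or pseudogenes), up to 4 called genes per list and up to 5 per direction for differences. The rule took 108 genes, of which some are not described and 3 are not reported here. Alternatives were other scaling, filters, DESeq2 1.42.0, limma-voom (limma 3.58.1), no robust estimation, the no-feature share as a covariate, bulk libraries alone, the replicate number as a block, and leaving out libraries. The fit was tested on simulated data. Promoters came from RefSeq (GRCh38.p14). Figures used Python 3.11.15 and matplotlib 3.10.9.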

Additional observations from a re-analysis of the deposited data

Results flagged for a closer look

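The EPZ5676 effect in bulk cells, without DMSO bulk replicate 1, differed from the effect in high-sorted cells for 45 of the 98 genes described, by the test of the difference in edgeR's quasi-likelihood fit at an adjusted p of 0.05. Over all genes tested, 946 of 18784 did so (5.04%). Of the 98, 91 were called in bulk cells without replicate 1, and some were chosen by this same test. The count of 45 therefore cannot be set against the share of all genes. The values below are the bulk effect minus the effect in high cells, on the log2 scale. The bulk effect was above that in high cells for matrix and matrix-modifying genes, with COL6A3 at 1.67, FN1 at 1.26, COL18A1 at 1.25, COL6A1 at 1.23, LAMB3 at 1.17, SPP1 at 1.09, TGM2 at 1.08, COL5A2 at 1.06, ITGA3 at 0.63, TIMP3 at 0.49, LOXL2 at 0.43, LTBP2 at 1.30 and FAP at 1.45. It was also above for the matrix receptor ANTXR2 (1.18), the cytokine LIF (1.32), the guidance genes SEMA6B (1.09) and PLXNC1 (0.82), the growth factors VEGFC (1.00) and PDGFC (0.75), the receptor KDR (2.29), VWF (0.98), the WNT pathway genes TCF7 (1.55) and FZD8 (1.17), MBP (1.02), CAV1 (0.45), PHLDA1 (0.37), C11orf96 (0.76), EGFR (0.61), DUSP4 (0.32) and L1CAM (0.30). EGFR was used to choose the high cells.

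The bulk effect was below that in high cells for the pigmentation genes DCT (-0.83), MLANA (-0.61) and PMEL (-0.34). The same held for SPARC (-0.43), FRMD4B (-0.80), TUBB4A (-0.79), PLAT (-0.65), ETS1 (-0.58), PRDX1 (-0.49), POU3F2 (-0.48), NFKBIZ (-0.32), UBASH3B (-0.29), CHORDC1 (-0.29), SCRN1 (-0.27) and ENO1 (-0.19).

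Of 44 genes with such a difference that the naming rule covered, 28 lost the call under at least 1 alternative, and 18 turned sign with all 18 libraries. Leaving out EPZ5676 bulk replicates 1 and 3 together was not among the alternatives counted for these differences. SCRN1 lost it under 10 of 15 alternatives, NFKBIZ and CHORDC1 under 8 each, UBASH3B under 6 and ENO1 under 5. The EGFR difference lost it without DMSO bulk replicate 2, without DMSO bulk replicate 3 and in limma-voom.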

How the results depend on the processing

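With 3 DMSO libraries the 132 calls became 290 with DESeq2, 440 with no filter on low counts, 50 with the no-feature share as a covariate, 2 with bulk libraries only, 25 when at least 2-fold was asked, 5 without EPZ5676 bulk replicates 1 and 3 together, and 39 to 550 with 1 library left out, the highest without DMSO bulk replicate 1. Without that library the 550 calls became 993 with bulk libraries only, 93 when at least 2-fold was asked, 173 without EPZ5676 bulk replicates 1 and 3 together, and 162 to 390 with 1 further library left out. Cases with 1 DMSO library assume that it varies like the other groups. Pairing by replicate number could not be judged. The deviations from the group means of DMSO and EPZ5676 bulk correlated at 0.0264, -0.0535 and 0.000605 for replicates 1 to 3. The outlying DMSO bulk replicate 1 weighs on all deviations of its group. Between EPZ5676 bulk and EPZ5676 low cells the correlations were 0.166, 0.247 and -0.2. With the replicate number as a replicate block the counts were 129 and 513, or 0 with bulk libraries only and the replicate block. The 0 calls against low cells became 4 with no filter and 0 to 1 with 1 library left out. The 946 against high cells became 871 with the replicate block, 515 to 817 with 1 library left out, and 18 with all 18 libraries. Sign turned for NGFR in bulk without DMSO bulk replicate 1 (1.55), with limma-voom (0.24) or with bulk libraries only and the replicate block (0.12), EGFR in bulk without it (0.33), with 1 library left out from -1.86 to 1.55 for NGFR and -0.66 to 0.33 for EGFR, and, with all 18 libraries, the differences from high cells of EGFR (-0.11), SPP1 (-0.41), LOXL2 (-0.91), FN1 (-1.23), COL6A3 (-0.56), COL5A2 (-0.76), COL18A1 (-0.073), COL6A1 (-0.31), ITGA3 (-0.55), TIMP3 (-0.071), PLXNC1 (-0.083), TGM2 (-0.44), VEGFC (-0.44), CAV1 (-0.62), LTBP2 (-0.67), FZD8 (-0.51), FAP (-1.08) and ANTXR2 (-0.56). Of the 102 named genes called without replicate 1, 39 kept their calls under all alternatives run, 63 lost them under at least 1, and 0 turned sign. Of the 29 called with 3 DMSO libraries, 0 kept their calls under all, 29 lost them and 0 turned sign. This 0 was fixed in advance, since bulk libraries only with the replicate block called 0 genes. That alternative was run with 3 DMSO libraries only, so the counts of kept genes in the 2 comparisons cannot be set against each other. CD22 and ST6GALNAC2 lost their calls under that alternative alone. For the differences from high cells, of 44 called 16 kept them, 28 lost them and 18 turned sign. These counts do not include the case without EPZ5676 bulk replicates 1 and 3 together. The cause of these changes was not tested, beyond the fewer libraries used. Depth limits genes of a few CPM.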
